A study of Mus musculus with 9 samples.

Results

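The genes described here are 33 genes of the cornified envelope and of squamous differentiation, picked by name and function. The choice was made with earlier results of these data known, so counts of members set beside all genes are description only. The 33 genes were followed through the esophagus of newborn mice that have or lack the transcription factor p63. Of the 33 genes, 32 had a probe on the array and 29 had a probe that was well above background in the sample on at least 2 of the 9 arrays, out of 22655 genes that passed this filter. Lce3a had no probe matched to it here. The probes of Flg and Sprr1b were not well above background on any array, and that of Casp14 on 1 array. The 29 other genes are the measured members below, and 22 of them were well above background on all 9 arrays.

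Total RNA of esophagus at postnatal day 0 was hybridised to 2-colour Agilent arrays, 1 array a sample, with the sample in Cy5 and a common reference RNA from 11 mouse cell lines in Cy3. The groups were wild type mice (n = 4, biological replicates per the labels), p63 knockout mice (p63-/-, n = 3) and the same knockout carrying in addition Cdx2, a transcription factor of the intestine, as a transgene named for the villin promoter (p63-/-;Cdx2, n = 2). All were of the C57BL/6J background, and the comparisons ask how these genes stood without p63, and without p63 but with Cdx2. Each group had its own slide, scanned separately, so slide effects and genotype effects cannot be told apart here. The villin promoter is best known from the intestinal epithelium, and the only Cdx2 probe reached the scanner's background limit on 0 of 9 arrays. The labels do not say what was deleted from the p63 gene. The labels number the arrays with Cdx2 out of 3, and 2 were analysed here. The labelled cell type is epithelium, while the extraction started from esophageal tissue, using a kit meant for fibrous samples, and all 10 fibroblast, 11 smooth muscle and 18 skeletal and heart muscle markers were well above background on all 9 arrays. In such bulk RNA, fewer cells of a type and less RNA per cell cannot be told apart.

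Stratified squamous epithelium renews itself from a basal layer, and cells that leave this layer switch on a set of genes that ends in the cornified envelope, a shell of protein cross-linked by transglutaminases beneath the plasma membrane. Envoplakin and involucrin form its first scaffold, loricrin and small proline-rich proteins reinforce it, and in skin lipids are bound to its outside. p63 is the factor best known for the formation and upkeep of stratified epithelia. The esophagus is lined by such an epithelium, which is rich in small proline-rich proteins.

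Between 30038 and 33249 of 41174 probes per array were well above background. The brightest Trp63 probe, late in the transcript, had log2 ratios of sample over reference of 3.53, 3.78, 3.39 and 4.13 in wild type, 2.74, 2.73 and 2.73 in p63 knockouts and 3.37 and 3.09 with Cdx2. Its knockout difference was -0.97 (SE 0.17; limma, adjusted p = 0.0747) in the ratio and -1.19 (SE 0.16; limma, adjusted p = 0.0102) in the sample channel, and whether this probe lies in the deleted part is not known. A second Trp63 probe, nearer to the start of the transcript, ran the other way, with log2 sample signals of 6.73 to 7.29 in wild type, 7.35 to 7.43 in p63 knockouts and 8.20 and 8.02 with Cdx2, so the p63 probes do not check the genotype labels. The source label of wild type replicate 4 names the knockout, while its title and genotype name wild type. Squamous markers (14 of 15 tested, Krt5 among them) summed to a log2 sample signal of 18.70 on that array, 18.45 to 18.73 on the other wild type arrays, 15.83 to 16.23 in p63 knockouts and 15.79 to 16.08 with Cdx2. Of these markers 8 fell in the log2 ratio in p63 knockouts and 10 with Cdx2 (limma, against 0.269% and 0.976% of all genes). They moved with the genes below, and their part in those results was not tested. Smooth muscle markers summed to 18.66 to 19.51 in wild type and 18.18 to 18.46 without p63, and 0 of 11 passed in the ratio or the sample channel.

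In the knockout, genes of several parts of the envelope were lower than in wild type: the proline-rich precursors Sprr3 and Sprr1a, cornifelin (Cnfn), suprabasin (Sbsn), sciellin (Scel) and transglutaminase 3 (Tgm3). These 6 of 29 measured members fell in limma on the log2 ratio (adjusted p under 0.05 over all genes), and 0 rose. Of all genes tested, 0.269% were called lower and 0.0574% higher. The median log2 ratio difference over the 29 members was -0.40, beside 0.02 over all genes. All knockout arrays were below all wild type arrays in 13 of 29 members, against 4.62% of all genes, and above them in 2, against 5.95%. Before adjustment, 15 of 29 members had a p under 0.05 in limma, and so had 1774 of 22651 genes. The number of calls moved with single arrays: 3 without wild type replicate 1, 2 without replicate 2, 3 without replicate 4, and 2, 1 and 1 without knockout replicates 1, 2 and 3. In these fits the lower calls over all genes numbered 46, 23, 36, 28, 16 and 19, beside 61 with all 9 arrays. Sprr3 passed in all 9 fits that left out 1 array, Cnfn in 7, Sbsn in 5, and Scel, Sprr1a and Tgm3 in 3 each.

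The sample channel can also be read without dividing by the reference, though the readings of both channels enter its normalization. On that reading 9 of 29 members fell in p63 knockouts and 0 rose (limma; 0.971% of all genes fell and 0.759% rose), the same 6 genes with envoplakin (Evpl), Krtdap and S100a14. The median over members was -0.65 on the log2 scale and 0.01 over all genes. Knockout arrays lay below all wild type arrays in 15 members (9.06% of all genes) and above them in 1 (9.15%).

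**Figure D1:**
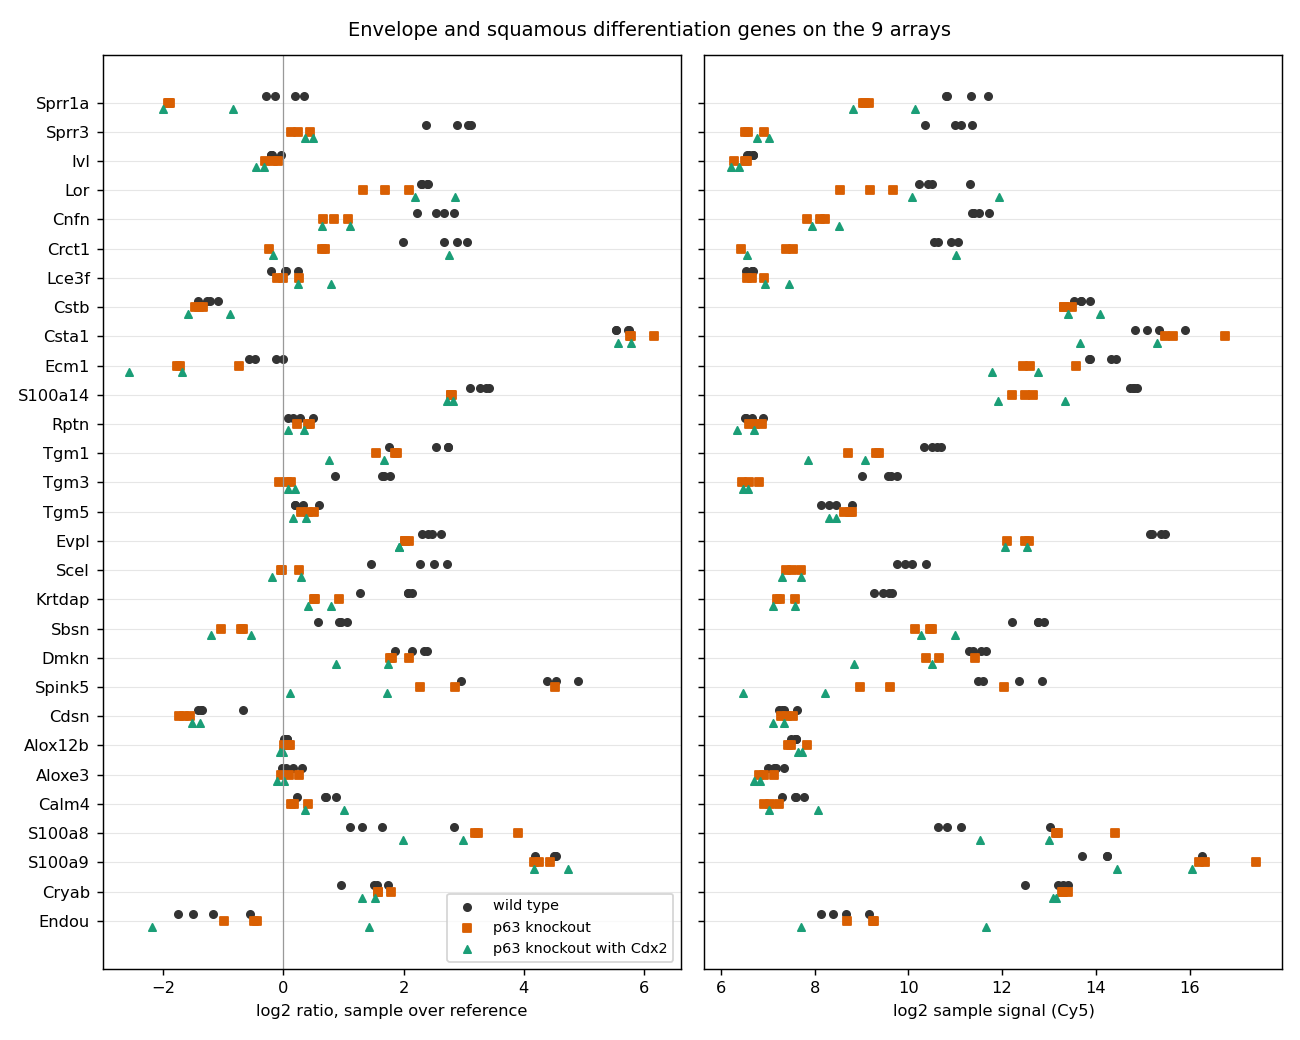
Values of the 29 measured genes on each of the 9 arrays, as the log2 ratio of sample over reference (left) and as the log2 sample signal (right), with 1 point per array. In both panels Sprr3, Cnfn, Tgm3, Scel, Krtdap and Sbsn stand apart from all wild type arrays in both groups without p63, while Ivl, Rptn, Alox12b and Aloxe3 lie close together in all groups. Each gene is shown by its brightest probe, and a second Alox12b probe, not shown, was lower on average without p63.

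Small proline-rich proteins are substrates of transglutaminases that bridge other envelope proteins. Sprr3, a member typical of the esophagus, had log2 sample signals of 11.37, 10.99, 11.12 and 10.35 in wild type, 6.53, 6.58 and 6.93 in p63 knockouts and 6.76 and 7.02 with Cdx2. The 5 arrays without p63 lay more than 3 log2 units under every wild type array. The difference was -4.28 (SE 0.23, 19.4-fold) in p63 knockouts and -4.06 (SE 0.26, 16.7-fold) with Cdx2, in the sample channel. In the log2 ratio it was -2.59 (SE 0.18; limma, adjusted p = 0.000837) and -2.44 (SE 0.20, with adjusted p = 0.00266). Its probe was well above background on 2 of 3 knockout arrays.

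Sprr1a, which is raised in stressed and differentiating epithelia, had log2 ratios of 0.34, -0.28, 0.20 and -0.14 in wild type and -1.91, -1.89 and -1.90 in the knockout. The knockout arrays were nearly equal to each other and well apart from wild type, and the difference of -1.93 (SE 0.26) passed (limma, adjusted p = 0.0275). With Cdx2 the 2 arrays differed, at -2.01 and -0.84, both below wild type. Their difference from wild type, -1.45 (SE 0.30), did not pass (limma, adjusted p = 0.0578), and it passed without Cdx2 replicate 2 at -2.03 (adjusted p = 0.0132, lowest of a range from 0.0132 to 0.284 over 25 settings). Sprr1b gave no value.

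Of 9 other measured envelope precursors, Cnfn fell in the knockout in the ratio, and S100a14 joined it in the sample channel. Cornifelin is a small cysteine-rich envelope protein. Cnfn had log2 sample signals of 11.73, 11.40, 11.35 and 11.51 in wild type, 8.22, 7.85 and 8.12 in p63 knockouts and 7.94 and 8.51 with Cdx2. Both groups without p63 lay about as far below wild type, with log2 ratio differences of -1.71 (SE 0.17; limma, adjusted p = 0.00799) and -1.69 (SE 0.20, with adjusted p = 0.0118).

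S100a14, a calcium-binding protein of epithelial cells, had log2 sample signals of 14.73, 14.88, 14.82 and 14.78 in wild type, 12.21, 12.48 and 12.65 in p63 knockouts and 11.92 and 13.34 with Cdx2. All 5 arrays without p63 were lower. The sample channel fell by 2.36 (SE 0.29; limma, adjusted p = 0.00614) in the knockout, while the ratio differed by -0.49 (SE 0.09; adjusted p = 0.077). With Cdx2 the ratio fell by 0.51 (SE 0.10; limma, adjusted p = 0.049), a call that held in 1 of 9 fits without 1 array.

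Ecm1, a secreted protein that is known from skin as a partner of basement membrane and matrix proteins, had log2 ratios of -0.47, -0.01, -0.56 and -0.13 in wild type, -0.73, -1.77 and -1.72 in p63 knockouts and -2.56 and -1.68 with Cdx2. Knockout replicate 1 lay nearest to wild type, and no array without p63 overlapped with it. The difference did not pass in the knockout (-1.12, SE 0.31; limma, adjusted p = 0.337) and passed with Cdx2 (-1.83, SE 0.35; adjusted p = 0.049). That call held in 1 of 9 fits without 1 array. Its second probe differed by -0.50 and -0.63.

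Crct1, a small gene of the epidermal differentiation complex, had log2 sample signals of 10.63, 10.92, 10.55 and 11.06 in wild type, 6.42, 7.53 and 7.39 in p63 knockouts and 6.55 and 11.02 with Cdx2. Replicate 2 with Cdx2 was in the wild type range and every other array without p63 was at least 3 log2 units below it, with the probe well above background on 2 of 3 knockout arrays and 1 of 2 with Cdx2. The knockout difference of -3.68 (SE 0.89, 12.8-fold; limma, adjusted p = 0.0965) did not pass, nor did the ratio difference of -2.28 (SE 0.62; adjusted p = 0.335). The SE is shared by all groups, and without either array with Cdx2 the same ratio difference passed (limma, adjusted p = 0.0355 in both fits, range 0.0355 to 0.67 over 25 settings).

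Lor, loricrin, the main envelope protein of skin, had log2 sample signals of 10.50, 10.41, 11.32 and 10.22 in wild type, 8.54, 9.68 and 9.19 in p63 knockouts and 10.07 and 11.94 with Cdx2. All knockout arrays lay below wild type, and of the arrays with Cdx2 replicate 1 lay just below the lowest wild type array and replicate 2 above the highest. The ratio difference in the knockout was -0.65 (SE 0.20; limma, adjusted p = 0.419). Involucrin (Ivl), a scaffold protein, was dim, well above background on 3 of 9 arrays, with log2 sample signals from 6.21 to 6.70. Lce3f, a late envelope gene, was dim as well, at 6.53 to 6.92 in wild type and knockout and 6.94 and 7.45 with Cdx2. Neither passed in any comparison.

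The protease inhibitors Cstb and Csta1 are cytoplasmic cystatins that become part of the envelope. Cstb lay between 13.32 and 14.09 in log2 sample signal on all arrays and differed by -0.15 (SE 0.16) in the knockout ratio, which did not pass. Csta1 depended on the probe. Its brightest probe differed by 0.27 (SE 0.12; limma, adjusted p = 0.66) in the knockout ratio. Its other probe had log2 sample signals of 10.84, 11.61, 10.90 and 11.55 in wild type, 6.24, 6.27 and 6.49 in p63 knockouts and 6.13 and 6.79 with Cdx2. This second probe was well above background on 4 of 4 wild type arrays, on 1 of 3 knockout arrays and on 1 of 2 arrays with Cdx2, and its ratio differed by -3.06 (SE 0.26) and -2.99 (SE 0.30). Stefin A genes of the mouse form a cluster of near-identical copies, so which of them each probe reads is uncertain.

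Transglutaminases join glutamine and lysine side chains and so weld the envelope together. Tgm3 had log2 sample signals of 9.56, 9.75, 9.0 and 9.62 in wild type, 6.82, 6.61 and 6.44 in p63 knockouts and 6.47 and 6.57 with Cdx2. It was far below wild type on every array without p63, and well above background on 2 of 3 knockout arrays and 1 of 2 with Cdx2. The ratio difference was -1.45 (SE 0.21; limma, adjusted p = 0.0339) in the knockout. It was -1.35 with Cdx2 (SE 0.23, adjusted p = 0.0439 in limma). Tgm1, the membrane-bound enzyme, had log2 sample signals of 10.50, 10.7, 10.32 and 10.61 in wild type, 8.72, 9.31 and 9.38 in p63 knockouts and 7.85 and 9.08 with Cdx2. These groups did not overlap either, and the sample channel difference was -1.39 (SE 0.29; limma, adjusted p = 0.062) in p63 knockouts and -2.06 (SE 0.33, with adjusted p = 0.0219) with Cdx2. In the ratio neither passed. Tgm5 stayed within 8.13 and 8.80 on all 9 arrays, and its knockout ratio difference was 0.08 (SE 0.12).

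Envoplakin and sciellin lie at the edge of the envelope, near desmosomes and the membrane. Scel had log2 ratios of 2.28, 2.72, 1.45 and 2.51 in wild type, 0.26, -0.02 and -0.03 in p63 knockouts and -0.18 and 0.29 with Cdx2. Wild type replicate 3 was lowest of its group and still above every array without p63. Scel fell by 2.17 (SE 0.28, 4.5-fold; limma, adjusted p = 0.0211) in the knockout and by 2.18 (SE 0.32, with adjusted p = 0.0254) with Cdx2. Evpl had log2 sample signals of 15.19, 15.48, 15.15 and 15.40 in wild type, 12.10, 12.58 and 12.50 in p63 knockouts and 12.07 and 12.53 with Cdx2. That is a clear gap in the sample, 7.53-fold in the knockout, but its log2 ratio moved by -0.40 (SE 0.09; limma, adjusted p = 0.178) while the reference reading moved too. A second Evpl probe differed by -0.80 (SE 0.09) in the knockout ratio and by -0.91 (SE 0.11) with Cdx2. With Cdx2 the first probe's difference of -0.52 (SE 0.10; limma, adjusted p = 0.0473) passed, a call that held in 0 of 9 fits without 1 array.

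The reference RNA was the same on all arrays, yet its channel fell by 2.51 on the log2 scale at the Evpl probe in the knockout. The Cy3 intensity above local background was 5098 to 6683 in wild type and 846 to 1046 in the knockout, with no normalization. Over the 29 members, 11 had a reference difference below -0.5 in the knockout, against 0.834% of all genes, and 11 with Cdx2, against 1.52%. Across genes of 1 comparison, sample and reference differences correlated at r = 0.73 over all genes and r = 0.86 over the members in the knockout, as a description over genes that share the same 7 arrays. Where the reference falls with the sample, the log2 ratio is smaller than the change in the sample channel. What moved the reference reading was not tested.

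**Figure D2:**
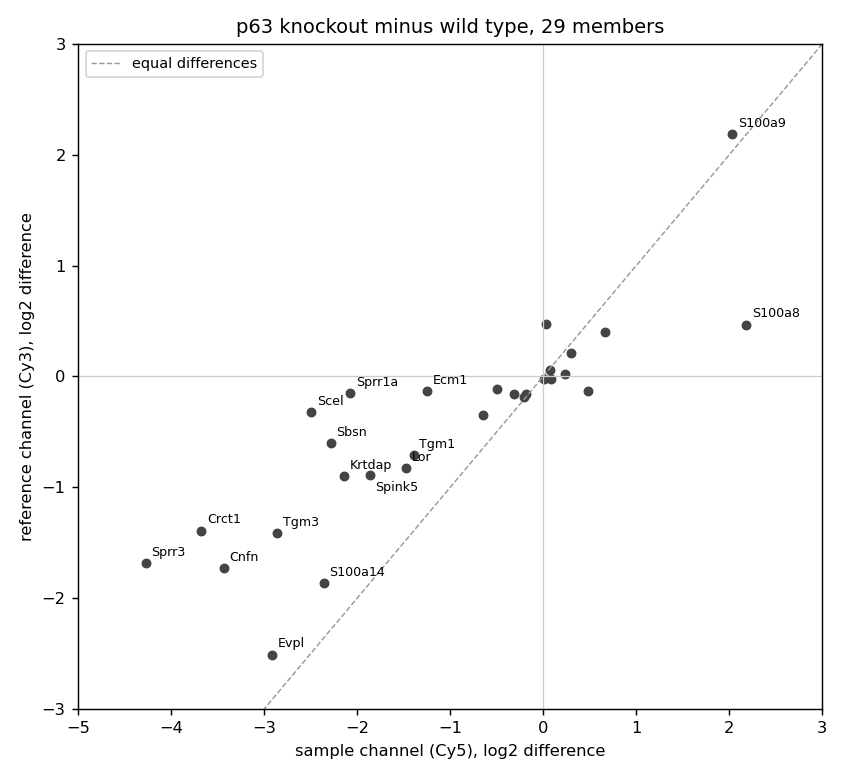
Log2 difference of p63 knockout minus wild type in the reference channel (Cy3, y axis) against that in the sample channel (Cy5, x axis) for the 29 measured genes, named where the sample difference exceeds 1. The dashed line marks equal differences, and points near it, such as Evpl (-2.91 and -2.51) and S100a9 (2.03 and 2.19), have a log2 ratio difference near 0.

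Suprabasin, dermokine and Krtdap are secreted by suprabasal cells, and their genes lie side by side in 1 locus. Sbsn had log2 ratios of 0.93, 0.96, 1.05 and 0.58 in wild type, -0.71, -1.03 and -0.68 in p63 knockouts and -1.21 and -0.53 with Cdx2. All arrays without p63 were lower, by 1.69 (SE 0.18; limma, adjusted p = 0.00912) in p63 knockouts and 1.75 (SE 0.21, with adjusted p = 0.012) with Cdx2. Krtdap had log2 sample signals of 9.65, 9.58, 9.46 and 9.27 in wild type, 7.58, 7.27 and 7.19 in p63 knockouts and 7.10 and 7.58 with Cdx2, again without overlap. Its sample channel fell by 2.14 (SE 0.15; limma, adjusted p = 0.000365), while its ratio difference of -1.24 (SE 0.23; adjusted p = 0.0975) passed only without wild type replicate 3 among the fits that left out 1 array (-1.45, adjusted p = 0.00606). Over 25 settings that p ranged from 0.000365 to 0.403. Dmkn had log2 sample signals of 11.29 to 11.65 in wild type, 10.38, 10.65 and 11.43 in p63 knockouts and 8.85 and 10.51 with Cdx2. The knockout overlapped with wild type, and neither difference passed.

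Spink5 encodes LEKTI, an inhibitor of the proteases that shed corneocytes. It had log2 sample signals of 12.37, 12.84, 11.48 and 11.59 in wild type, 12.05, 9.61 and 8.96 in p63 knockouts and 6.48 and 8.23 with Cdx2. Knockout replicate 1 lay in the wild type range while the other two did not, and both arrays with Cdx2 were below all others. Its sample channel fell by 4.72 (SE 0.87, 26.3-fold; limma, adjusted p = 0.0357) with Cdx2, where it was well above background on 1 of 2 arrays. The knockout difference of -1.87 (SE 0.77; adjusted p = 0.288) did not pass. Cdsn, a glycoprotein of corneodesmosomes, lay between 7.10 and 7.62 on all arrays, and its knockout difference was -0.44 in the ratio and 0.03 in the sample channel, neither passing.

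No call was made for the remaining genes of barrier, filament and stress roles. The lipoxygenases Alox12b and Aloxe3, which act on the lipids bound to the envelope, lay between 7.44 and 7.83 and between 6.71 and 7.35 in log2 sample signal on all arrays, and neither passed in any comparison. These values are from the brightest probe of each gene. A second Alox12b probe was well above background on the 4 wild type arrays and on no array without p63. Its ratio differed from wild type by -0.60 (SE 0.15) in the knockout and by -0.64 (SE 0.17) with Cdx2. In the sample channel the differences were -1.35 and -1.33. Rptn, a filament-binding relative of filaggrin, lay between 6.35 and 6.91. Calm4, a calmodulin-like protein of keratinocytes, lay between 6.91 and 8.07. Cryab, a small heat shock protein that is also abundant in muscle, was lowest in wild type replicate 1 at 12.50 and between 13.10 and 13.41 elsewhere. The 18 muscle markers summed lowest on that same array, at 19.13 against 19.49 to 21.09 on the others, and their part in this was not tested.

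**Figure D3:**
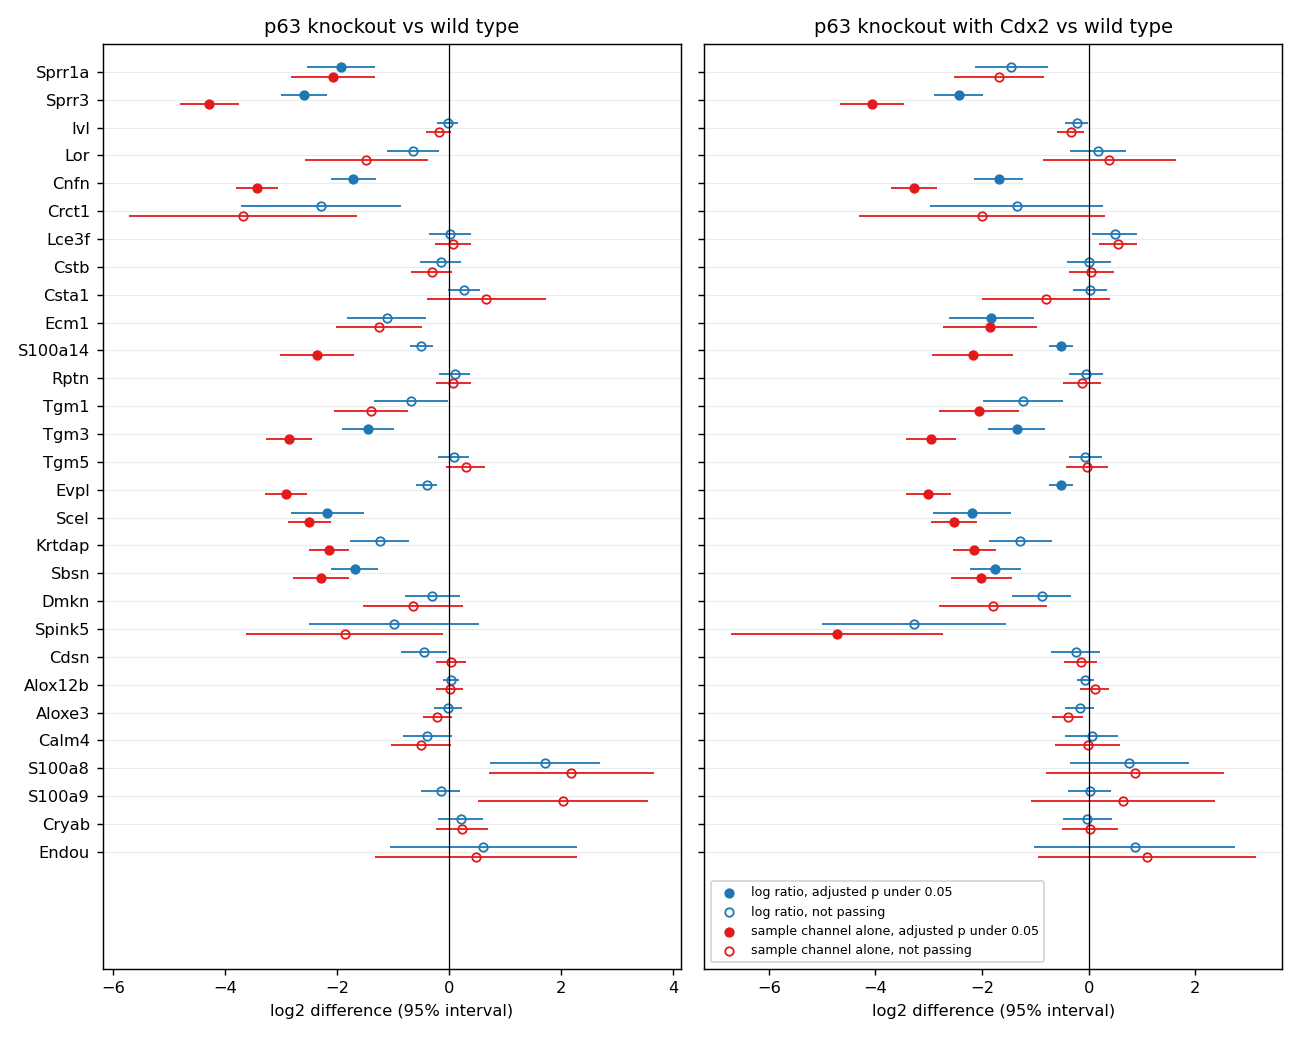
Log2 differences from wild type with 95% intervals for the 29 measured genes, in the knockout (left) and in the knockout with Cdx2 (right), from the log ratio (blue) and from the sample channel alone (red). Filled points passed an adjusted p of 0.05 in limma over all genes. In the knockout 6 genes passed in the ratio and 9 in the sample channel, all of them lower.

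Promoters are shown for 4 of the 12 members that passed against wild type in either reading. These 4 had a single RefSeq window, and it lay outside the span of the gene itself. The bases shown are the 250 before the annotated start (RefSeq, assembly GRCm38.p6), 5′ to 3′ on the gene's strand. Capitals mark matches on either strand to the AP-1 motif TGANTCA, the TATA box TATAAA and the KLF motif GGTGTGG, where N is any base. The windows are chr3:92458721-92458970 (minus strand) for Sprr3, chr3:92485882-92486131 (minus) for Sprr1a, chr7:25369725-25369974 (minus) for Cnfn and chr7:30787655-30787904 (plus) for Krtdap.
Sprr3: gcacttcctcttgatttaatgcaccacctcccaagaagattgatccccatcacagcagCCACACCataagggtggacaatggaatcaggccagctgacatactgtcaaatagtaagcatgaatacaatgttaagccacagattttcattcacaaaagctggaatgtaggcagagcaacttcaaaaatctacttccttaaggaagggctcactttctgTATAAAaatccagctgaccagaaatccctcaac
Sprr1a: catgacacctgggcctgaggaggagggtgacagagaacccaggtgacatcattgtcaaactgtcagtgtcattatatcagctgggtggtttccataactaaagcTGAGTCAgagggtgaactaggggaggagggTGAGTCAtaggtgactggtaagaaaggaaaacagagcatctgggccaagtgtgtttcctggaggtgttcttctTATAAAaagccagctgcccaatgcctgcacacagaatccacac
Cnfn: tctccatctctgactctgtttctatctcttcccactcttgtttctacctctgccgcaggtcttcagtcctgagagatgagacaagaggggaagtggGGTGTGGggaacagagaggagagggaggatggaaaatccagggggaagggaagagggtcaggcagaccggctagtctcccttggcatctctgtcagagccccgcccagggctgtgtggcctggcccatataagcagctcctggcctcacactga
Krtdap: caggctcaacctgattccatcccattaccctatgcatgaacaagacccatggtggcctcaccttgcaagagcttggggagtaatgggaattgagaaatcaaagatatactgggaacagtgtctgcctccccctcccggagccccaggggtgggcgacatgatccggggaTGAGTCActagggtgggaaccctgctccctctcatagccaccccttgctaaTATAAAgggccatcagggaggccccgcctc
Sprr1a held 2 AP-1 matches and Krtdap 1, each with a TATA box nearer to the start. Sprr3 held a TATA box and a KLF match, and Cnfn a KLF match with none of the others. Windows were found for 25 of 33 members, 29 in all. AP-1 was matched in 13 of 29 windows (11 of 25 genes), where 6.75% of 32851 windows of all genes held it, and the TATA box in 11 of 29, against 12.37%. The KLF motif was matched in 7 of 29 windows, against 6.52%. A spaced pair of the p53 family's CATG core was in 0 of 29 windows, against 0.49% of all, and the Grainyhead-like motif in 0 of 29, against 0.28%. A match of letters is no binding site. Of the 11 genes with an AP-1 match, Sprr1a, Krtdap, Sbsn, Scel and Ecm1 passed in at least 1 comparison, Dmkn, Ivl, Lor and Rptn in none, and Flg and Sprr1b gave no value.

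The knockout with Cdx2, read in 2 arrays, was lower than wild type in precursors, scaffold genes, a transglutaminase and a secreted protein. In the log2 ratio 8 of 29 members fell and 0 rose (limma; 0.976% of all genes fell and 0.45% rose): Sprr3, Scel, Ecm1, Sbsn, Cnfn, Tgm3, Evpl and S100a14. In the sample channel 11 fell and 0 rose (1.54% of all genes fell and 0.883% rose), those 8 with Krtdap, Spink5 and Tgm1. The median log2 ratio difference was -0.24 over members and -0.01 over all genes, and over members it was -0.53 without Cdx2 replicate 2. Arrays with Cdx2 lay below all wild type arrays in 15 of 29 members (13.9% of all genes), and above them in 0 (13.8%). In the sample channel they lay below in 15 (14.1%) and above in 2 (17%), Alox12b and Lce3f. This comparison shares its 4 wild type arrays with the one above, so the values of both stand side by side and are no independent evidence. The ratio calls numbered 4, 3 and 3 without wild type replicates 1, 2 and 4, and 5, 3 and 3 without knockout replicates 1, 2 and 3. They numbered 4 (3 lower and 1 higher) without Cdx2 replicate 1 and 5 without Cdx2 replicate 2, where the lone array left is assumed to vary like the other groups. Sprr3, Cnfn and Sbsn passed in all 9 of these fits. Over all genes, lower calls numbered 121, 51 and 54 without wild type replicates 1, 2 and 4. They were 205, 104 and 79 without knockout replicates 1, 2 and 3, beside 221 with all 9 arrays.

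Set against the knockout itself, the knockout with Cdx2 differed in 0 of 29 members in limma, as in 0 of 22650 genes (0% called in either direction). The lowest adjusted p of a member was 0.363, for Lor, and 3 members had an unadjusted p under 0.05, out of 2590 such genes. In the sample channel 0 members passed, against 42 genes lower (0.185%) and 9 higher (0.0397%). Both arrays with Cdx2 lay below all knockout arrays in 7 members (18% of all genes) and above them in 2 (14%) in the ratio, and in 6 (16.3%) and 2 (19.4%) in the sample channel. The reference channel difference was below -0.5 in 4 members (1.85%). For members that fell in the knockout the intervals of the log2 ratio difference were -0.33 to 0.64 for Sprr3, -0.24 to 1.19 for Sprr1a, -0.46 to 0.50 for Cnfn, -0.57 to 0.44 for Sbsn, -0.78 to 0.76 for Scel and -0.46 to 0.66 for Tgm3. Each of these upper bounds is smaller than the size of the same gene's fall in the knockout. Such intervals do not show that the groups are alike. Lor was higher on both arrays with Cdx2 than on all knockout arrays (0.82, SE 0.24), and Spink5 was lower on both (-2.30, SE 0.79).

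The 2 arrays with Cdx2 stood apart from each other in many of these genes. The median gap between them was 0.69 in log2 sample signal over the 29 members, beside a median range of 0.52 over the 4 wild type arrays and 0.39 over the 3 knockout arrays, while in the log2 ratio it was 0.47, beside 0.55 and 0.30. In log2 sample signal replicate 2 was higher than replicate 1 in 26 of 29 members, against 45.6% of all genes, and by more than 1 in 12, against 4.03% of all genes. Crct1 was at 6.55 and 11.02, a 22.1-fold gap, and Endou, an endonuclease of the placental protein 11 family, at 7.72 and 11.65, a 15.3-fold gap. Endou lay between 8.14 and 9.27 on the wild type and knockout arrays, so replicate 2 was above and replicate 1 below all 7 of them. Lor at 11.94 was likewise above every other array. The large gaps did not include Sprr3, Cnfn, Scel or Tgm3, which differed by 0.26, 0.57, 0.41 and 0.10. Sprr3 (6.76 and 7.02) and Tgm3 (6.47 and 6.57) were dim on both arrays, so their small gaps say little.

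Among other genes that were picked after their values were seen, the basal keratin Krt5 was at 7.40 and 12.01 on these arrays, with 15.03 to 15.44 in wild type and 7.92 to 9.37 in the knockout. The late envelope gene Lce1a1 was at 6.97 and 10.35, with 6.48 to 7.40 on all other arrays. Skin markers (7 of 11 tested) summed to 11.93 and 12.25, with 11.38 to 11.79 on the other arrays, but the mean log2 signal of the same genes was 7.55 and 8.19, with 7.55 to 7.86 on the other arrays, so it was raised in replicate 2 alone. The skin keratins on this list went both ways. Krt1 was lowest on these 2 arrays, at 6.59 and 6.57, with 7.01 to 7.52 on the other 7. Krt10 was highest on them, at 11.60 and 11.46, with 10.82 to 11.34 on the other 7. Markers of columnar and glandular epithelium (13 of 13 tested) summed to 17.23 in replicate 1 and 19.11 in replicate 2, beside 18.57 to 19.15 on the other arrays. In replicate 1 the glandular genes Muc5b and Scgb3a1 were at 7.51 and 10.77, where all other arrays were at 13.36 to 15.24 and at 16.18 to 18.32. The part of these in the members' values was not tested. With Cdx2 replicate 2 as the only array of its group, Endou rose in the ratio (2.67; limma, adjusted p = 0.0424, range 0.0424 to 0.743 over 25 settings). With replicate 1 as the only one, Crct1 fell (-2.82; adjusted p = 0.0481, range 0.0481 to 0.952).

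**Figure D4:**
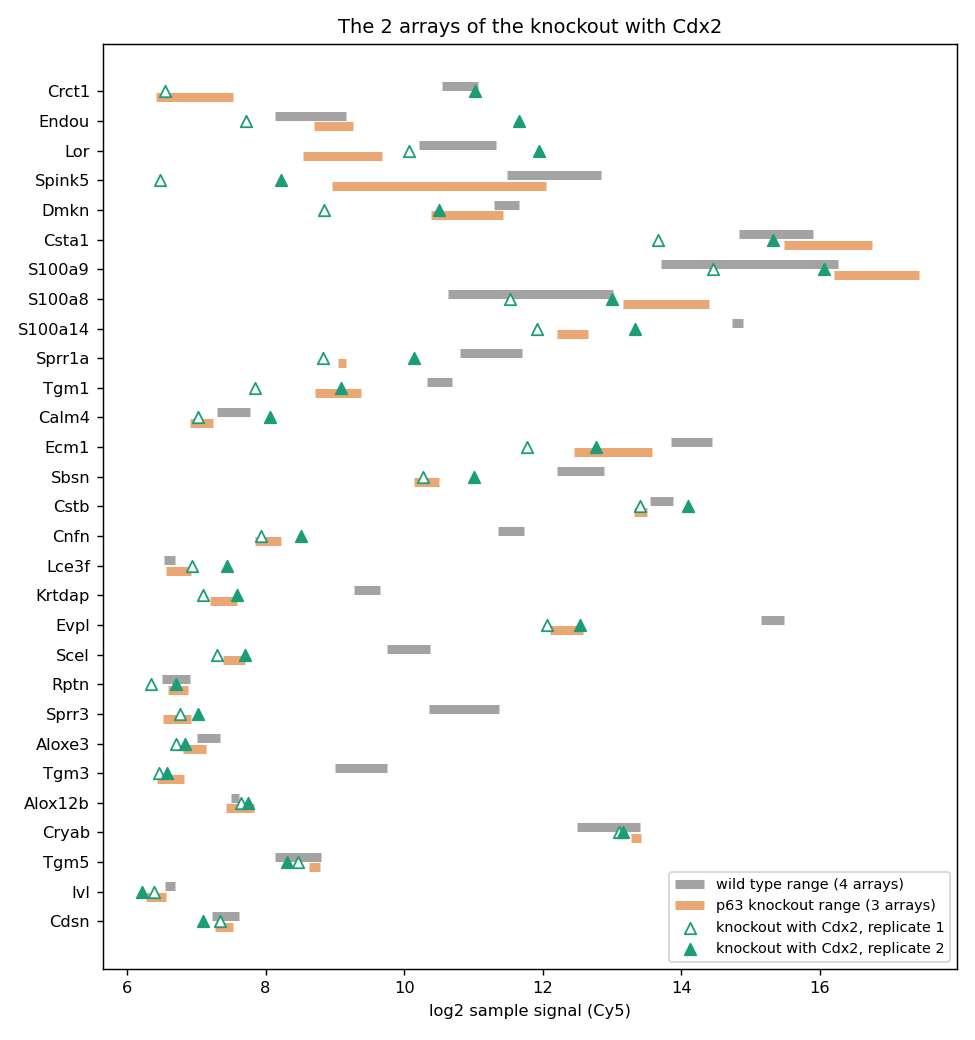
Log2 sample signal of the 29 measured genes on both arrays of the knockout with Cdx2 (open triangles replicate 1, filled replicate 2), with the range of the 4 wild type arrays (grey bars) and of the 3 knockout arrays (orange bars). Genes are ordered by the gap between both arrays, from Crct1 and Endou at the top, where replicate 2 is 22.1-fold and 15.3-fold brighter.

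S100a8 and S100a9 form calprotectin, a pair made by stressed squamous cells and, in large amounts, by neutrophils. S100a8 had log2 ratios of 1.11, 1.31, 2.83 and 1.65 in wild type, 3.90, 3.23 and 3.19 in p63 knockouts and 1.99 and 2.98 with Cdx2. It was the member with the largest positive knockout difference, 1.72 (SE 0.43, 3.29-fold), with all knockout arrays above wild type, and did not pass (limma, adjusted p = 0.27). Without wild type replicate 3, which lay nearest to the knockout, it passed (2.09; adjusted p = 0.0374, range 0.0327 to 0.809 over 25 settings). S100a9 had log2 sample signals of 13.70, 14.24, 16.26 and 14.24 in wild type, 17.42, 16.20 and 16.32 in p63 knockouts and 14.46 and 16.06 with Cdx2. Knockout arrays were high, wild type replicate 3 was as high, and the difference of 2.03 (SE 0.66; limma, adjusted p = 0.188) did not pass. Its reference channel moved by 2.19, and its ratio by -0.15.

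Summed markers of neutrophils and their precursors were highest on the same wild type and knockout arrays. The 18 of 20 tested summed to a log2 sample signal of 13.66, 14.16, 15.07 and 14.45 in wild type, 17.21, 14.70 and 15.19 in p63 knockouts and 13.29 and 14.75 with Cdx2. A single gene, Ltf, made up a large part of this sum on every array but Cdx2 replicate 1. Ltf was at 14.17 in wild type replicate 3, 16.82 in knockout replicate 1 and 9.80 and 14.03 with Cdx2. The mean log2 signal of the 18 genes leans less on Ltf. It too was highest of its group in wild type replicate 3 (9.20) and knockout replicate 1 (10.41), and was 8.27 and 8.99 with Cdx2. In the log2 ratio 2 of 18 rose in p63 knockouts and 3 with Cdx2 (0.0574% and 0.45% of all genes), and 0 fell. Between 15 and 18 of them were well above background on each array. Mpo, the peroxidase of neutrophil granules, was at 9.20, 9.60, 12.12 and 10.45 in wild type and 11.88 to 12.50 in the knockout in log2 sample signal. With Cdx2 Mpo was at 11.80 in replicate 1 and 11.32 in replicate 2, the reverse order of the summed markers. The brightest Csta1 probe was highest on the same wild type and knockout arrays, at 15.90 in wild type replicate 3 and 16.75 in knockout replicate 1. With Cdx2 this probe was at 13.67 and 15.31. The part of these cells in the values of S100a8, S100a9 and Csta1 was not tested.

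**Figure D5:**
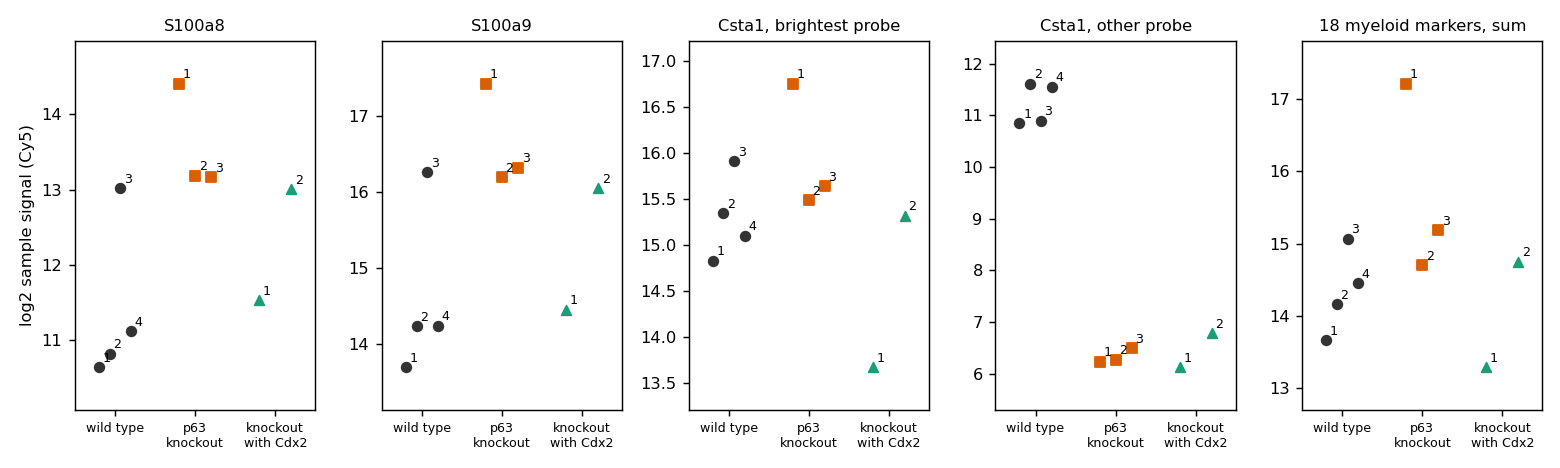
Log2 sample signal on each array, with its replicate number, for S100a8, S100a9, both probes of Csta1 and the summed signal of 18 markers of neutrophils and myeloid precursors. Wild type replicate 3 and knockout replicate 1 are highest of their groups in S100a8, S100a9, the brightest Csta1 probe and the markers, while the other Csta1 probe is at 10.84 to 11.61 in wild type and at most 6.79 elsewhere.

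Other genes of the same pathways were read from 4 lists that leave out the members. Of all genes tested, 0.269% fell in the log2 ratio in p63 knockouts and 0.976% with Cdx2. In the sample channel 0.971% and 1.54% of all genes fell. Of 35 tested genes of other envelope and epidermal differentiation complex precursors (58 listed), 3 fell in p63 knockouts and 7 with Cdx2, and 0 rose. Among them Anxa1, an annexin that is cross-linked into the envelope, fell by 1.49 (SE 0.21) and 2.05 (SE 0.24), and periplakin (Ppl), the partner of envoplakin, fell by 1.02 (SE 0.15) in the knockout. Krt78, a keratin of esophageal suprabasal cells, fell by 1.21 (SE 0.14) there. Calml3, a calmodulin-like protein, was at 3.09 to 3.42 in log2 ratio in wild type, 2.80 to 2.95 in p63 knockouts and 0.85 and 2.23 with Cdx2, where it fell by 1.77 (SE 0.31). Its sample signal was far lower in both groups without p63. On the log2 scale it was 15.43 to 15.99 in wild type, 11.04 to 11.46 in p63 knockouts and 7.51 and 10.25 with Cdx2. Of 9 fits that left out 1 array, the knockout calls held in 2 for Anxa1, 3 for Ppl and 5 for Krt78, and the calls with Cdx2 in 9 for Anxa1 and 2 for Calml3. The median knockout difference of this list was -0.18.

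Of 26 tested genes of barrier lipids (35 listed), 0 passed in the knockout in the ratio in limma, while 3 fell in the sample channel. The lowest adjusted p was 0.11, for Cyp4f39, at -0.50 (SE 0.09). With Cdx2, Psapl1, a saposin-like protein, fell by 1.65 (SE 0.22) as the 1 call. Of 30 tested proteases and inhibitors of desquamation (43 listed), the protease Prss27 fell by 1.41 (SE 0.17) in the knockout and by 1.61 (SE 0.19) with Cdx2, where Padi1, a deiminase of envelope proteins, fell too, by 1.39 (SE 0.18). The calls with Cdx2 held in 6 of 9 such fits for Psapl1, 9 for Prss27 and 7 for Padi1, and the knockout call of Prss27 in 3. The medians of both lists were -0.10 and 0.07 in the knockout.

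Of 43 tested regulators of squamous differentiation (46 listed), 1 fell in p63 knockouts and 5 with Cdx2, and 0 rose. Klf5, a zinc finger factor of basal epithelial cells, fell by 0.59 (SE 0.08) and 0.91 (SE 0.09). With Cdx2 the epithelial ETS factor Elf3 fell by 1.20 (SE 0.22) and the AP-1 subunit Fosl2 by 1.12 (SE 0.17). The Klf5 call held in 3 of 9 fits without 1 array in the knockout and in 9 with Cdx2, that of Elf3 in 1 and that of Fosl2 in 4. In the sample channel 7 and 9 fell. The list holds Trp63, the gene of p63 itself, which is among the 7 (-1.19, SE 0.16) and not among the 9. The list's median ratio difference was -0.09 in p63 knockouts and -0.23 with Cdx2. Against the knockout, 0 genes of the 4 lists passed with Cdx2 in limma, and the lowest adjusted p in them was 0.363. Without Cdx2 replicate 2, Calml3 passed as lower in this comparison (-2.02; adjusted p = 0.0106, range 0.0106 to 0.813 over 25 settings).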

How the data were processed

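RNA of 9 esophagus samples was read on 9 2-colour arrays. Per the file headers, the deposited scanner files hold mean spot and local background intensity in both channels, processed intensity and a log10 ratio, written by Agilent Feature Extraction version 10.7.3.1, where the submitters' processing notes list version 9.1. The authors' deposited value table holds log2 ratios that matched the scanner files (r at least 0.992 per array, medians -0.213 to -0.0281). How it was centred is not given in the sources used here.

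In limma 3.58.1 (R 4.3.3), intensities were corrected by normexp (offset 50) and loess. The log2 ratio is sample (Cy5) over reference (Cy3), and the sample signal is Cy5 after loess and Aquantile. These steps use the readings of both channels. Of 45018 spots per array, 1639 controls and 119 to 171 outlier spots were left out, and 0 sample spots were saturated. Probes well above background in the sample on at least 2 arrays were kept (33761 of 41174), 26918 of all probes being named by accession and 5899 by symbol or synonym. A gene was read from its brightest kept probe. One fit covered all 9 arrays, with Benjamini-Hochberg adjustment over 22655 genes and a threshold of 0.05. A change below background has no exact size, so folds of dim genes (Sprr3, Tgm3, Crct1, Spink5) are approximate. The number of arrays limits the precision. The scripts were tested on simulated data.

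All 33 genes are named whatever their values, and from each other list up to 3 passing genes with the largest difference per direction, or the gene with the lowest p. Members and lists were chosen with earlier results of these data known. The alternatives were other corrections, filters, probe summaries, channels and fits, and leaving out each array.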

Additional observations from a re-analysis of the deposited data

Results flagged for a closer look

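In 5 of 29 genes, 1 wild type array lay far from the other 3 in the log2 ratio, with a gap to the nearest that exceeded Dixon's limit for 4 samples. In Krtdap, replicate 3 was at 1.27 where the others were at 2.07 to 2.14. In Tgm3, replicate 3 was at 0.86, with the others at 1.65 to 1.77. In Cdsn, replicate 3 was at -0.67, above the others at -1.42 to -1.35. In Ivl, replicate 3 was at -0.0358, with the others at -0.20 to -0.19. In S100a9, replicate 1 was at 4.18, below the others at 4.50 to 4.53. Chance picks out about 1 in 20 such groups. Replicate 3 accounts for 4 of the 5, it was the lowest wild type array in 14 of 29 ratios, and in the sample signal 0 of 29 genes had such an array. The cause was not tested.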

How the results depend on the processing

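Over 25 other settings, the 14 calls of members were kept 231 times and lost 119 times, and members without a call gained a call 41 times, 39 in their own direction. In the knockout against wild type, 6 members passed in limma. The number was 10 (9 lower, 1 higher) with array weights and 0 with the replicate block, and 1 to 8 when 1 array was left out. Lower calls over all genes moved with the settings too. In the knockout they numbered 161 with array weights and 9 with the replicate block, beside 61. With Cdx2 they numbered 539 with no background subtraction, 121 with offset 16, 125 with median centring and 274 with processed signals, beside 221. They were 75 with Aquantile and scale, 44 with only the 2 groups, 274 with the deposited table and 8 with the replicate block. In the knockout with Cdx2 against wild type, 8 members passed. The number was 13 with no background subtraction, 4 with a normexp offset of 16, 5 with median centring, 5 with the processed signals, 4 with Aquantile and scale normalisation, 1 with only the 2 groups compared, 5 with the deposited value table, 0 with the replicate block, and 3 to 7 when 1 array was left out. Between the groups without p63, 0 members passed in all 25 settings. Csta1 turned from higher to lower with the mean of its kept probes, at -1.40 against wild type in the knockout and -1.48 with Cdx2, and passed as lower in both (limma, adjusted p = 0.0153 of a range to 0.85, and 0.0145 of a range to 0.993), since its probes disagree. The members' median ratio difference ranged over settings from -0.99 to -0.37 in the knockout and from -1.04 to -0.20 with Cdx2, lowest in both with Aquantile and scale normalisation.

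Replicate numbers were not found to pair the samples: deviations of same-numbered arrays correlated at -0.14 to 0.19 (7 pairs, 2 over 0.1), and of others at -0.20 to 0.19 (19 pairs, 3 over 0.1). The 2 arrays with Cdx2 deviate from their mean by equal and opposite amounts. Their pairs therefore repeat with the sign turned and are not separate observations, so this check is weak. Dim probes bound what can be read of Ivl, Lce3f, Rptn, Tgm3, Crct1 and Spink5. Slide and genotype cannot be told apart, and the cause of other shifts was not tested.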
